A study of Mus musculus with 23 samples.

Results

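The cytosolic ribosomal protein genes studied here were the 76 genes whose symbols name a core protein of the large or the small ribosomal subunit (Rpl or Rps with a number, and Rplp0, Rplp1, Rplp2 and Rpsa), of 47729 genes in the count table. Of these, 46 encode large subunit proteins and 30 small subunit proteins, and all 76 passed the filter on low counts that left 19597 genes for testing. RNA was sequenced from dendritic cells (DCs) sorted from the spleens of wild type Balb/C mice, each library being made from a pool of animals. Populations were sorted on CD8 and CD172: DC1a (CD8hi CD172-), DC1b (CD8Int CD172+), DC2 (CD8lo CD172hi) and DC3 (CD8- CD172lo). The mice were untreated (2 pools per subset, 8 libraries) or carried the treatment label TLI, which the labels do not spell out (4 pools for DC1a, DC1b and DC3 and 3 for DC2, 15 libraries), and no age was given. The untreated pools and TLI pools 1 and 2 were labelled batch 1, and TLI pools 3 and 4 batch 2. Batch 2 therefore held TLI cells only, and in it batch and pool cannot be told apart. The TLI DC2 library of pool 2 was not analysed here.

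Ribosomal proteins assemble with ribosomal RNA into the small subunit, which decodes the mRNA, and the large subunit, which forms peptide bonds. Their mRNAs are abundant in all cells, begin with an oligopyrimidine tract (the TOP motif), and are translated under the control of mTOR, a kinase that senses growth factors and nutrients. In dendritic cells, protein synthesis is known to be regulated during activation. In RNA pooled from sorted cells, fewer cells of a type and less RNA per cell cannot be told apart.

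Promoter sequences of some members are shown first, as genes of this family are known for short shared promoter elements. Whether these elements relate to the changes in level given below was not tested. The RefSeq table (GRCm38.p6) had promoters for 56 of the 76 members, in 66 entries. Each line gives the 40 bases before and the first 15 bases from the annotated start, 5′ to 3′ on the gene's strand, with CTTTC or CTTCC on either strand in capitals.
Rpsa (chr9:120127726-120127780, plus strand): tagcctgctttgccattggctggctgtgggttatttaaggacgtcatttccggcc
Rps6 (chr4:86857353-86857407, minus strand): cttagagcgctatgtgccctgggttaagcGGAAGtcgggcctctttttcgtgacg
Rps27 (chr3:90213634-90213688, minus strand): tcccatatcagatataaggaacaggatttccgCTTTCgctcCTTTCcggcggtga
Rpl31 (chr1:39367811-39367865, plus strand): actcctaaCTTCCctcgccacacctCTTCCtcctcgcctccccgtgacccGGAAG
Rpl38 (chr11:114668540-114668594, plus strand): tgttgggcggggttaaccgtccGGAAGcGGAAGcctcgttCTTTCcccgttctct
Rpl39 (chrX:37085208-37085262, minus strand): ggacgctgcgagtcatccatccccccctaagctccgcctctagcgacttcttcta
Rpl4 (chr9:64173347-64173401, plus strand): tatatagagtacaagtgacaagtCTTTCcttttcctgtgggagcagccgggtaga
In this window of 55 bases, CTTTC on the gene's own strand was found in 31.8% of the member entries and in 7.51% of all 32851 promoters in the table. CTTCC on the same strand was found in 28.8% of member entries and 11.9% of all promoters. Over the full 300 bases of each entry, CGGAAG, the core of the binding site of ETS family factors, was found on either strand in 62.1% of member entries and 16.9% of all promoters. The complement of CGGAAG contains CTTCC, so the last 2 searches overlap. The sequences shown differed among themselves, with 3 matches in Rpl31 and Rpl38 and none in Rpsa and Rpl39. These matches describe the letters in the window only.

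The libraries held between 19256447 and 36997890 counts, and the member with the fewest counts in any library, Rpl29, still had 358, far above the 3 counts taken as the limit of detection. Counts came from amplified cDNA without molecular identifiers, so depth describes counting error only. Cd8a and Sirpa encode the proteins used for sorting (CD172 is encoded by Sirpa), and in untreated DC1a and DC2 they followed the gates. Cd8a was at 468 and 450.3 CPM (counts scaled to the same library total) in DC1a and 0.610 and 0.415 CPM in DC2. Sirpa was at 252 and 196 CPM in DC2. Some libraries went against their gate, namely TLI DC1b pool 4 (Cd8a 0.327 CPM), TLI DC1b pools 3 and 4 (Sirpa 5.10 and 6.55 CPM), TLI DC2 pool 3 (Sirpa 9.22 CPM) and untreated DC3 pool 2 (Cd8a 41.6 CPM). A list of 10 genes of plasmacytoid DCs summed to 6493 and 8893 CPM in untreated DC1b and to at most 354 CPM in every other library. Erythroid marker genes, 9 of 10 listed ones found, summed to between 19886 and 133912 CPM in the TLI libraries of batch 1, to between 144 and 7149 CPM in those of batch 2 and to between 56.7 and 2276 CPM in untreated cells. Neutrophil markers reached between 1485 and 21136 CPM in TLI DC1b, and mitochondrially encoded genes made up under 1.1% of counts in only 4 libraries: TLI DC1a pools 1 and 2, TLI DC1b pool 2 and TLI DC3 pool 2.

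The 76 members together took between 3.30% and 9.14% of all counts. Among untreated cells the share was highest in DC1a and lowest in DC2. It was 8.07% and 7.14% in DC1a (7.6% ± 0.66, SD, n = 2) and 6.26% and 6.52% in DC3 (6.39% ± 0.18, n = 2). It was 4.74% and 4.19% in DC1b (4.47% ± 0.39, n = 2), and 3.90% and 3.30% in DC2 (3.60% ± 0.42, n = 2). The 2 libraries of each subset did not overlap with those of any other, and the mean in DC2 was 0.473 of that in DC1a.

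In TLI cells the order of the subsets differed between batches. In DC1a the share was 3.94% and 3.5% in pools 1 and 2, and 9.14% and 9.08% in pools 3 and 4, so that these cells held the highest share of all and some of the lowest. In DC3 it was 4.46% and 3.45% in batch 1 and 8.0% and 7.46% in batch 2. In DC2 it was 3.77% in the batch 1 library and 6.5% and 6.04% in batch 2. In DC1b the batches lay closer together, with 4.83% and 4.80% in batch 1 and 4.99% and 6.73% in batch 2. The share in DC1b was therefore 1.3 times that in DC1a in batch 1 and 0.643 times in batch 2. No test was run on this summed share. Leaving the erythroid marker counts out of the totals gave group means of 6.56%, 5.46%, 5.51% and 6.03% for TLI DC1a, DC1b, DC2 and DC3, against 6.41%, 5.34%, 5.44% and 5.84% with them. With TMM-scaled totals the untreated means were 8.08%, 3.87%, 3.31% and 5.66% in DC1a, DC1b, DC2 and DC3, in the same order. Without pool 4, whose Cd8a level went against its gate, the TLI DC1b mean was 4.88%, and without pool 3, whose Sirpa level did, the TLI DC2 mean was 4.90%.

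**Figure D1:**
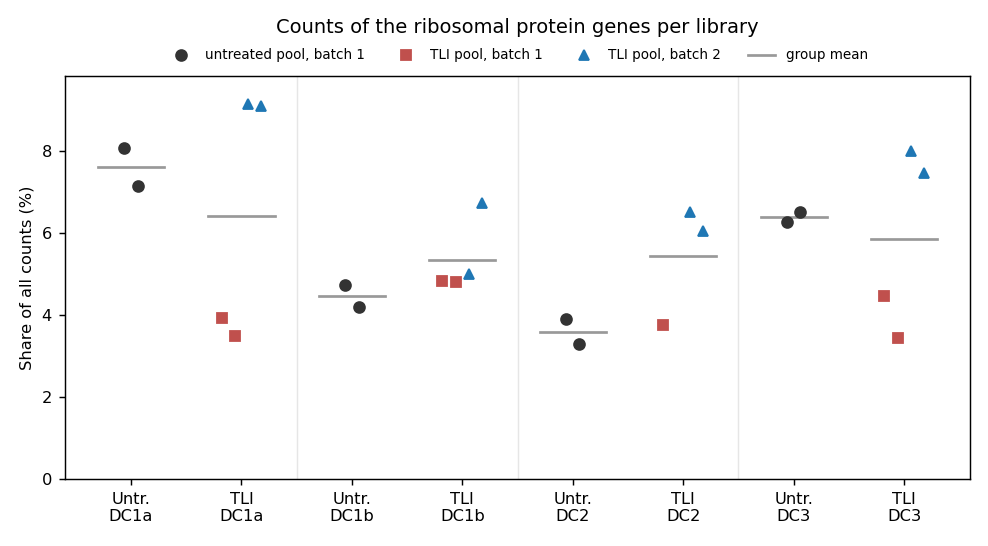
Share of all counts (percent, vertical axis) taken by the 76 cytosolic ribosomal protein genes in each of 23 libraries, by subset and treatment; points are libraries, marked by batch, and bars are group means. Untreated DC1a libraries lie at 7.14% and 8.07% and untreated DC2 at 3.30% and 3.90%, and TLI DC1a splits into 3.5% and 3.94% in batch 1 and 9.08% and 9.14% in batch 2.

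The ratio of small to large subunit counts was between 0.677 and 0.902 in all 23 libraries. Per kilobase of transcript, Rpl32 had the highest mean level over all libraries, at 4383 CPM per kb. It was the highest member in 10 of the 23 libraries, while Rps27 was so in 8, Rpl13 in 3 and Rps29 in 2. The next means were those of Rps27 (3939 CPM per kb), Rps29 (3752) and Rps19 (3132). The lowest levels per kilobase were those of Rpl29 (56.2 CPM per kb), Rps20 (149), Rps3 (275), Rps2 (275) and Rpl12 (301). Rpl41, whose coding sequence is the shortest at 75 bases, stood at 2451 CPM per kb, and Rpl4, with the longest at 1257 bases, at 714. Levels per kilobase rest on 1 annotated transcript per gene. For Rps20 that transcript had 3706 bases, with a coding sequence of 357, and the mean level was 552 CPM. For Rps3 and Rpl12 it had 1908 and 1242 bases, with coding sequences of 729 and 495. The low levels of these genes per kilobase depend on that choice of transcript. The gene of Rpl32 overlaps Cand2 on the other strand, and the counts were not stated to use strand. Rpl39, a small protein that lines the exit tunnel, varied most between libraries, with a highest level 13.6 times the lowest, while Rpl7, named after its values were seen, varied least, at 1.78 times.

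Untreated DC1b cells were compared with untreated DC1a cells to see whether the 2 CD8-expressing subsets differ in their ribosomal protein mRNAs. The median log2 fold change of the 76 members was -1.03, against 0.07 for all genes tested. In all, 8 members were significantly lower in DC1b and none was higher (edgeR quasi-likelihood test, Benjamini-Hochberg adjusted p under 0.05), and 0.316% of all genes tested were lower by the same rule. At an unadjusted p under 0.05, 64 members were lower, against 5.1% of all genes tested. In 73 of 76 members both DC1b libraries lay below both DC1a libraries, against 17.4% of all genes tested. On GRCm38, the members that the text returns to lie at chr9:120127689-120132369 (Rpsa), chr9:120571444-120574654 (Rpl14), chr3:90212522-90213651 (Rps27), chr1:39367842-39371911 (Rpl31) and chrX:37082520-37085402 (Rpl39).

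Among the large subunit proteins, Rpl14 stood at 1727 and 1490.0 CPM in DC1a and at 754 and 413 CPM in DC1b. Its level in DC1b was 3.40-fold lower (log2 fold change -1.76, SE 0.39, edgeR adjusted p = 0.0389), and the libraries of the 2 subsets did not overlap. Rpl18 was at 1213 and 1087 CPM in DC1a and at 567 and 380.1 CPM in DC1b (log2 fold change -1.58, SE 0.34, edgeR adjusted p = 0.0357). Among the small subunit proteins, Rpsa, also known as the laminin receptor, was at 1812 and 1394 CPM in DC1a and at 763 and 595 CPM in DC1b (log2 fold change -1.54, SE 0.29, edgeR adjusted p = 0.0171). For each of these 3 genes every DC1b library was below every DC1a library. Rps2, which sits near the decoding site, was lower by 1.46 on the log2 scale, from 486 and 443 CPM to 236 and 177 CPM (edgeR adjusted p = 0.0365). Rpl13, Rpl8 and Rpl27a, named here after their values were seen, were also called.

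Rpl31, a protein near the tunnel exit, went the other way. It stood at 616 and 567 CPM in DC1a and at 1016 and 1022 CPM in DC1b, and was the only member whose DC1b libraries both lay above both DC1a libraries. The difference did not pass the edgeR test. Relative to the median member of the same library, Rpl31 was 1.53 higher in DC1b than in DC1a on the log2 scale, and the next member, Rps27, was 0.66 higher. Rpl31 overlaps Tbc1d8 on the other strand and has 21 annotated pseudogenes bearing its name, so its counts carry some uncertainty. The same caution holds for other members. Rps12 has 22 such pseudogenes and Rpsa 9. In all, 57 members have a named pseudogene and 22 have an annotated overlap.

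The number of members called in this comparison was sensitive to single libraries. It was 0 without either untreated DC1a library or without untreated DC1b pool 2, and 1 without untreated DC1b pool 1. It was 3 without either untreated DC3 library, 4 without either untreated DC2 library or TLI DC2 pool 1, 5 without TLI DC3 pool 2 or 3, and 15 without TLI DC1b pool 3. With the pool as a block the count was 5 (0.321% of all genes tested), and with DESeq2's Wald test it was 26 (2.6%). Without the 4 TLI libraries of low mitochondrial share it was 31, and the share of all genes called in that fit is not given. Scaling to library totals moved the median of all genes tested to 0.36 and left no member called, while the members' median relative to all genes was -1.10 under either scaling. The summed plasmacytoid DC genes given above moved with this comparison, as did other lists. Monocyte or macrophage genes summed to between 4317 and 7259 CPM in DC1b and between 1058 and 1125 CPM in DC1a. For B cell genes the ranges were 1309 to 1751 CPM and 254 to 291 CPM. For NK cell genes they were 602 to 700 CPM and 99.1 to 147 CPM. T cell genes gave 231 to 246 CPM and 7.72 to 9.59 CPM. Erythroid genes were lower in DC1b (75.5 to 109 CPM against 131 to 1526 CPM). The part of these lists in the comparison was not tested.

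Untreated DC2 cells, the CD172hi subset, differed from DC1a more than DC1b did. The median log2 fold change of the members was -1.34, against 0.11 for all genes tested. In all, 32 members were significantly lower in DC2 and none was higher, against 1.05% of all genes tested that were lower. At an unadjusted p under 0.05, 72 were lower, against 6.59% of all genes tested. Scaling to library totals left 19 members called. In 75 of 76 members both DC2 libraries lay below both DC1a libraries, against 20.3% of all genes tested, and the exception was Rps27. Monocyte or macrophage genes summed to 6704 and 6044 CPM in DC2 and to 1125 and 1058 CPM in DC1a, with 1 of 12 (Lyz2) called higher, and their part in the comparison was not tested.

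Rpsa was at 497 and 446 CPM in DC2, with both libraries far below the 1812 and 1394 CPM of DC1a (3.92-fold lower, log2 fold change -1.97, SE 0.30, edgeR adjusted p = 0.0016). This call was kept in all 30 alternatives run, with a log2 fold change between -2.15 and -1.76. Rps6, the substrate of S6 kinase downstream of mTOR, was at 1772 and 1756 CPM in DC1a and at 845 and 788 CPM in DC2 (log2 fold change -1.32, SE 0.24, edgeR adjusted p = 0.00645). Rps26, which lies at the mRNA exit site, was at 875 and 696 CPM in DC1a and at 290.2 and 209 CPM in DC2 (log2 fold change -1.86, SE 0.43, edgeR adjusted p = 0.0342). In all 3 genes the libraries of the 2 subsets did not overlap. Rps2 (log2 fold change -1.37) and the X-linked Rps4x (-1.21) were also called, while Rps14, Rps19, Rps27a and Rps29 were not.

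Of the large subunit, Rpl14 was at 555 and 452 CPM in DC2, below both DC1a libraries (log2 fold change -1.88, SE 0.39, edgeR adjusted p = 0.0158). Rplp0, the base of the stalk that recruits elongation factors, was at 1311 and 997 CPM in DC1a and at 501 and 525 CPM in DC2 (log2 fold change -1.38, SE 0.29, edgeR adjusted p = 0.016). The other stalk proteins, Rplp1 and Rplp2, did not pass, at 577 and 390.3 CPM and at 435 and 388 CPM in DC2, although their DC2 libraries also lay below those of DC1a (1386 and 983 CPM, and 974 and 796 CPM). Rpl5, which with Rpl11 and the small ribosomal RNA 5S can bind Mdm2, was at 875 and 878 CPM in DC1a and at 506 and 553 CPM in DC2 (log2 fold change -0.94, SE 0.21, edgeR adjusted p = 0.0292). Rpl11 itself was at 703 and 636 CPM against 333 and 438 CPM and did not pass. Rpl10, Rpl12, Rpl13a and Rpl22, of which Rpl10 joins the large subunit last and Rpl22 is known for its role in T cell development, were lower by 1.63, 1.75, 1.57 and 1.57 on the log2 scale.

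Rps27 was the member that differed least between these subsets. It was at 1333 and 1073 CPM in DC1a and at 1419.9 and 1069.6 CPM in DC2, and also at 1232 and 1025 CPM in DC1b and 1296 and 1190.0 CPM in DC3. The libraries of all 4 untreated subsets overlapped. Relative to the median member of the library it was 1.17 higher in DC2 than in DC1a on the log2 scale, followed by Rpl4 (0.82 higher) and Rps27a (0.62 higher), a fusion of ubiquitin to a ribosomal protein.

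With 1 library of DC1a or DC2 left out, the 32 calls fell to between 1 and 3: 1 without untreated DC1a pool 1, 2 without untreated DC1a pool 2, 3 without untreated DC2 pool 1 and 1 without untreated DC2 pool 2. The count was 21 without TLI DC2 pool 1. DESeq2's Wald test called 61 members (5.06% of all genes tested). The fit in edgeR without the 4 TLI libraries of low mitochondrial share also called 61, and its share of all genes is not given.

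**Figure D2:**
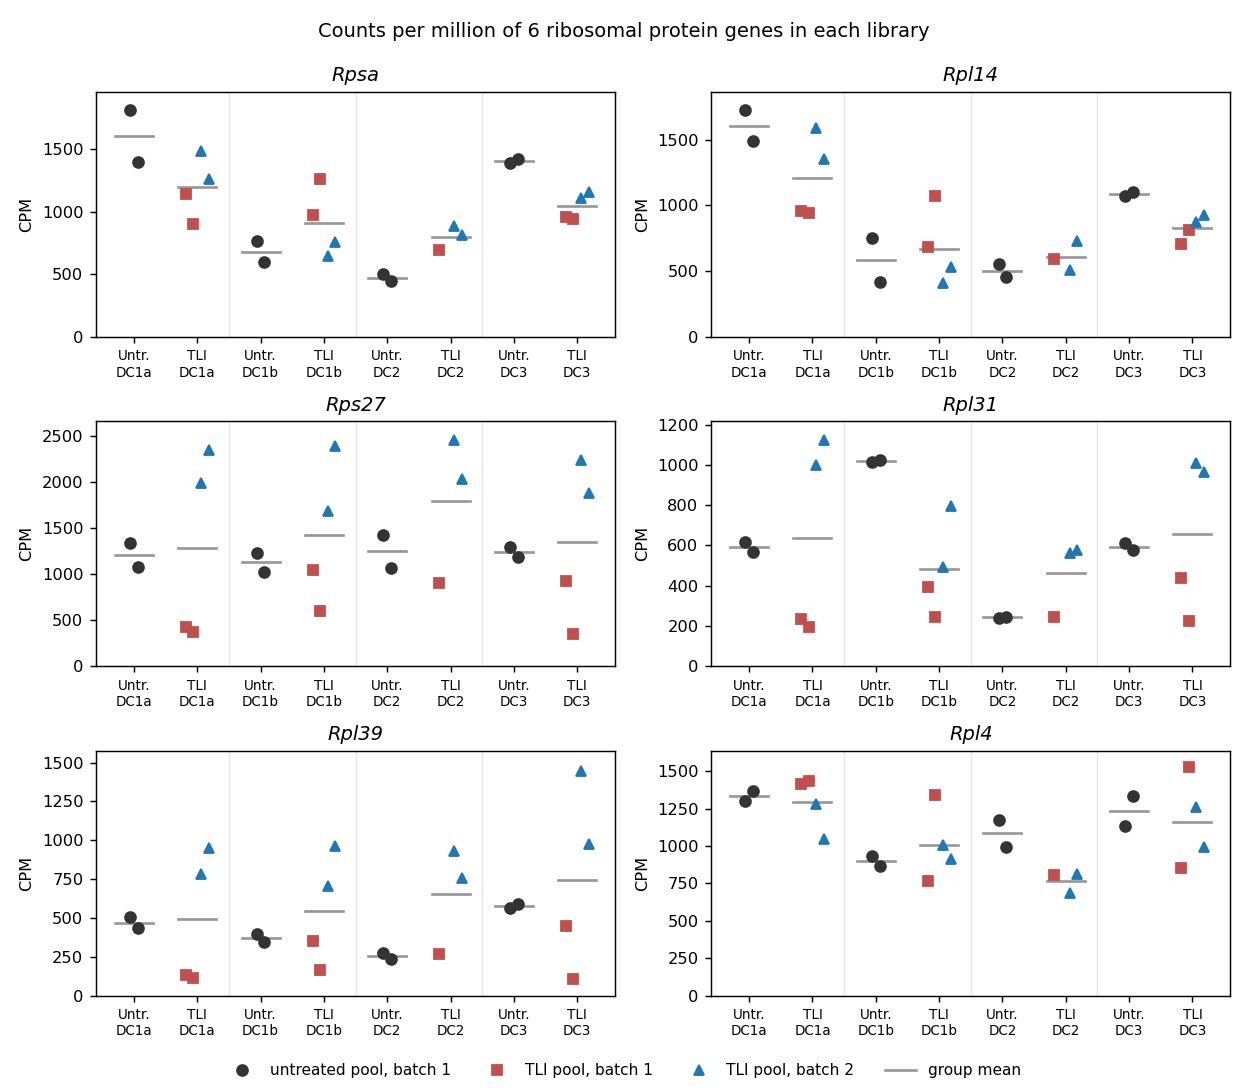
Level (CPM, vertical axis) of Rpsa, Rpl14, Rps27, Rpl31, Rpl39 and Rpl4 in each of the 23 libraries, by subset and treatment, with points marked by batch. In untreated cells Rpsa falls from 1812 and 1394 CPM in DC1a to 497 and 446 CPM in DC2, whereas Rps27 stays between 1025 and 1419.9 CPM in all 4 subsets, and Rpl31 is highest in DC1b.

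Untreated DC3 cells, which carry neither sorting marker at a high level, were nearer to DC1a. The median of the members was -0.46 on the log2 scale, against 0.04 for all genes, and no member passed the test in either direction with edgeR or DESeq2, against 0.184% of all genes tested with edgeR. At an unadjusted p under 0.05, 13 members were lower with edgeR, against 3.27% of all genes tested. Both DC3 libraries lay below both DC1a libraries in 44 members, against 15.4% of all genes tested. Rplp0 was at 636 and 828 CPM in DC3, and Rpsa at 1386 and 1418 CPM, 1 library just below and 1 between those of DC1a. Without untreated DC3 pool 2, whose Cd8a level went against its gate, no member was called either. Plasma cell genes summed to 10009 and 4583 CPM in DC3 and to 219 and 156 CPM in DC1a, NK cell genes to 717 and 419 CPM and to 99.1 and 147 CPM, and B cell genes to 2055 and 566 CPM and to 291 and 254 CPM; their part in the comparison was not tested.

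The same 3 subset comparisons were made in TLI cells. DC1b and DC3 cells had no member past the threshold against DC1a with edgeR (13 and 18 lower at an unadjusted p under 0.05, against 4.82% and 5.65% of all genes tested), where 1.42% and 0.75% of all genes tested passed, and DESeq2 called 2 and 3 members. Leaving out TLI DC1b pool 2 gave 1 call in the DC1b comparison, and leaving out TLI DC1a pool 2 or TLI DC1b pool 3 gave 1 in the DC3 comparison. The median of the members for DC1b against DC1a was 0.49 within batch 1 and -0.63 within batch 2, and for DC3 0.11 and -0.45. Within batch 2 alone 1 member, Rpl13 (named after its value was seen), was lower in DC1b, against 0.114% of all genes tested in that fit. The difference between batches in the DC1b comparison passed the edgeR test for no member. At an unadjusted p under 0.05, 64 members were lower, against 5.38% of all genes tested. Monocyte or macrophage genes summed to between 8163 and 26905 CPM in TLI DC1b, 1657 and 4616 CPM in TLI DC3, and 608 and 2330 CPM in TLI DC1a. Their part in these comparisons was not tested.

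TLI DC2 cells had 12 members significantly lower than TLI DC1a cells and none higher, against 1.3% of all genes tested that were lower. All 12 were among the 38 members with coding sequences of 456 bases or more. The summed share of these long members in DC2 was 0.852 times that in DC1a in batch 1 and 0.662 times in batch 2. For the 38 shorter members it was 1.32 times in batch 1, where DC2 had 1 library, and 0.711 times in batch 2. In all, 9 members had no overlap between the 3 DC2 and the 4 DC1a libraries, against 5.05% of all genes tested. Rpl14 was at 957, 945, 1593 and 1357 CPM in DC1a (pools 1 to 4) and at 589, 508 and 729.5 CPM in DC2 (pools 1, 3 and 4), without overlap. Its log2 fold change was -1.32 (SE 0.30, edgeR adjusted p = 0.0192). Rps2 was at 379, 383, 341 and 300.03 CPM in DC1a and at 203, 139 and 172 CPM in DC2 (log2 fold change -1.26, SE 0.25, edgeR adjusted p = 0.00714). Rplp0 was at 1088, 893, 1139 and 970.0 CPM in DC1a and at 614, 567 and 474 CPM in DC2 (log2 fold change -1.18, SE 0.22, edgeR adjusted p = 0.00511). In each of these 3 genes the DC2 libraries lay below the DC1a libraries of their own batch. Rpsa (log2 fold change -0.91), Rps6 (-0.89), Rpl10 (-0.96) and Rpl13a (-0.83) were called as well. Monocyte or macrophage genes summed to between 6339 and 14973 CPM in TLI DC2 and between 608 and 2330 CPM in TLI DC1a. For neutrophil genes the ranges were 137 to 2339 CPM and 6.41 to 14.1 CPM, and for NK cell genes 443 to 747 CPM and 194 to 386 CPM. The ranges for B cell, T cell, plasma cell and erythroid genes overlapped. The part of these lists in the comparison was not tested.

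With the pool as a block in edgeR, 6 members were called in TLI DC2 (0.919% of all genes tested). Scaling to library totals left 2 called, DESeq2 called 22, and without the 4 libraries of low mitochondrial share 28 were called. Within batch 1, where DC2 had 1 library, no member was called, and within batch 2 alone 7 were. Leaving out 1 library gave 2 calls without TLI DC2 pool 1, 3 without TLI DC2 pool 3 and 5 without TLI DC2 pool 4. It gave 6, 4 and 4 without TLI DC1a pools 1, 3 and 4, 7 without TLI DC1b pool 2, 5 without TLI DC3 pool 2, and 7 without any 1 of the untreated DC1a or DC3 libraries.

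TLI and untreated cells of the same subset were compared to see whether the treatment changed these genes. In DC1a no member was called, where 2 genes (0.0102%) were called among all tested, although 51 members were lower at an unadjusted p under 0.05 (5.64% of all genes tested) and the median was -0.80, against 0.15 for all genes. DESeq2 called 5 members, all lower, and the share of all genes it called there is not given. With so few calls over the whole table, the absence of a call does not show that a member was the same in both groups. This fit takes the batch difference out with 1 term estimated from the TLI pools. Within batch 1 alone, both TLI DC1a libraries lay below both untreated libraries in 73 of 76 members, against 26.3% of all genes tested, and the share was 0.489 of the untreated one. The TLI libraries of batch 2, by contrast, had a share 1.2 times the untreated one. Both TLI DC1a libraries of batch 1 were among the 4 with low mitochondrial counts and held 23967 and 112816 CPM of erythroid genes; the part of either in these values was not tested.

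Rps27 in DC1a was at 1333 and 1073 CPM in untreated cells, at 429 and 368 CPM in TLI pools 1 and 2 and at 1991 and 2349 CPM in TLI pools 3 and 4. The untreated libraries thus lay between the TLI batches. Rpl39 showed the same order, with 503.6 and 432 CPM in untreated cells, 132 and 113 CPM in TLI batch 1 and 779.7 and 952 CPM in TLI batch 2. Rpl4, a long protein of the exit tunnel that was picked after its values were seen, did not, with 1299 and 1369 CPM in untreated cells, 1415 and 1432 CPM in TLI batch 1 and 1284 and 1048 CPM in TLI batch 2.

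In DC3 no member was called (0.0255% of all genes tested), 26 were lower at an unadjusted p under 0.05 (6.54% of all genes tested) and the median was -0.59. Within batch 1, 68 of 76 members had both TLI DC3 libraries below both untreated ones, against 24.5% of all genes. In DC2 no member was called (0.0612% of all genes tested), 1 was higher at an unadjusted p under 0.05 (4.32% of all genes tested), and the median was 0.00. DESeq2 called no member in either subset. In DC1b the members' median was 0.13, and -0.18 when scaled to library totals. Within batch 1, 12 members were higher and 4 lower without overlap in DC1b, against 13.8% and 28.7% of all genes. The medians are taken after the batch term. Before it, the summed share in TLI batch 2 was 1.21, 1.74 and 1.31 times the untreated one in DC3, DC2 and DC1b. In TLI batch 1 these ratios were 0.619, 1.05 and 1.08.

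One member passed the test between TLI and untreated cells. Rpl31 in DC1b was at 1016 and 1022 CPM in untreated cells and at 393, 242, 493 and 794 CPM in TLI pools 1 to 4, so that no TLI library reached the untreated level. It was 3.05-fold lower (log2 fold change -1.61, SE 0.34, edgeR adjusted p = 0.0493), where 0.214% of all genes tested were lower. The plasmacytoid DC genes summed to 6493 and 8893 CPM in untreated DC1b and to between 114 and 192 CPM in TLI DC1b, with 2 of 10 called lower (Runx2 and Tcf4), and 3 of 12 monocyte or macrophage genes and 2 of 9 erythroid genes were higher in TLI DC1b. Neutrophil genes, none of which passed, summed to between 1.16 and 21.05 CPM in untreated DC1b and between 1485 and 21136 CPM in TLI DC1b. The part of these genes in the Rpl31 value was not tested. The call was lost when any 1 of 20 of the 23 libraries was left out, the exceptions being TLI DC1b pool 1, TLI DC3 pool 1 and TLI DC1a pool 2, so it was also lost without TLI DC1b pool 4, whose Cd8a level went against its gate. With the pool as a random block in limma, Rpl31 was again lower (2.64% of all genes tested) and Rpl8 was higher (1.12%), named here after its value was seen. A difference in the TLI effect between DC1a and DC1b, DC2 or DC3 passed the edgeR test for no member, where 0.0357%, 0.0255% and 0.0% of all genes passed. At an unadjusted p under 0.05, 39, 22 and 0 members had a higher TLI effect in DC1b, DC2 and DC3 than in DC1a, against 4.0%, 3.57% and 1.5% of all genes tested, and DESeq2 called 1 member over the 3 tests.

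The 2 batches of TLI cells differed in most members. With subset in the model, 53 members were significantly higher in batch 2 and 1, Rps2, was lower, against 9.35% of all genes tested that were higher and 8.07% that were lower. The median log2 fold change of the members was 0.89, against -0.23 for all genes. In 32 members all 8 batch 2 libraries lay above all 7 batch 1 libraries, against 5.12% of all genes. Leaving out 1 library at a time gave between 49 and 58 calls.

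Rpl39 ranged from 107 to 450.4 CPM in the 7 libraries of batch 1 and from 705 to 1448 CPM in the 8 of batch 2, without overlap. Its difference was 4.31-fold (log2 fold change 2.11, SE 0.29, edgeR adjusted p = 0.000112). Rps28 ranged from 126 to 311 CPM in batch 1 and from 490.0 to 861 CPM in batch 2 (log2 fold change 1.84, SE 0.21, edgeR adjusted p = 2.16e-05). Rpl38, known for its role in the translation of Hox mRNAs, ranged from 127 to 375 CPM and from 491 to 1088 CPM (log2 fold change 1.83, SE 0.25, edgeR adjusted p = 9.25e-05). In each of these genes the highest batch 1 library stayed below the lowest of batch 2. Rps27 (log2 fold change 1.73), Rpl22 (1.67), Rps29 (1.63), Rpl5 (1.34), Rps27a (1.33), Rps14 (1.28) and Rplp2 (1.27) were also higher. Smaller increases were called for Rps19 (1.11), Rpl32 (1.1), Rpl12 (1.03), Rpl13a (1.01), Rplp1 (0.89), Rps20 (0.84), Rpl41 (0.84), Rps4x (0.79) and Rpl11 (0.55). Rps2 was lower, by 0.64 on the log2 scale (SE 0.16, edgeR adjusted p = 0.0126), from between 203 and 431 CPM to between 139 and 341 CPM, with overlap. Rpsa, Rps3, Rps6, Rplp0, Rpl3, Rpl10, Rpl14 and Rpl29 were not called.

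By subset, 57 members were higher in batch 2 in DC1a (3.2% of all genes) and 24 in DC3 (1.2%), with none lower (0.73% and 0.883%). In DC1b 1 was higher, Rpl5 (0.663%), and 1 lower, Rpl13 (0.74%), named after its value was seen, and in DC2, with 1 library in batch 1, 1 was higher, again Rpl5 (0.0867%), and none lower (0.316%). The medians were 1.60 in DC1a, 0.36 in DC1b, 0.78 in DC2 and 0.96 in DC3. Without the 4 libraries of low mitochondrial share, 32 members were higher in batch 2 and none lower, and the shares of all genes in that fit are not given. Mitochondrially encoded counts were between 0.712% and 2.22% of the total in TLI batch 1 and between 3.31% and 5.28% in batch 2, and erythroid genes were lower in batch 2 (9 of 9 tested). Markers of other cells were also lower there: 6 of 8 NK cell genes, 6 of 12 T cell genes and 5 of 12 monocyte or macrophage genes. Of 8 genes common to DCs, 6 were lower, among them genes of MHC class II and Flt3, and 1, Itgax, was higher; these genes summed to between 33782 and 120383 CPM in batch 1 and between 11974 and 38341 CPM in batch 2. The part of these genes in the batch difference was not tested.

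**Figure D3:**
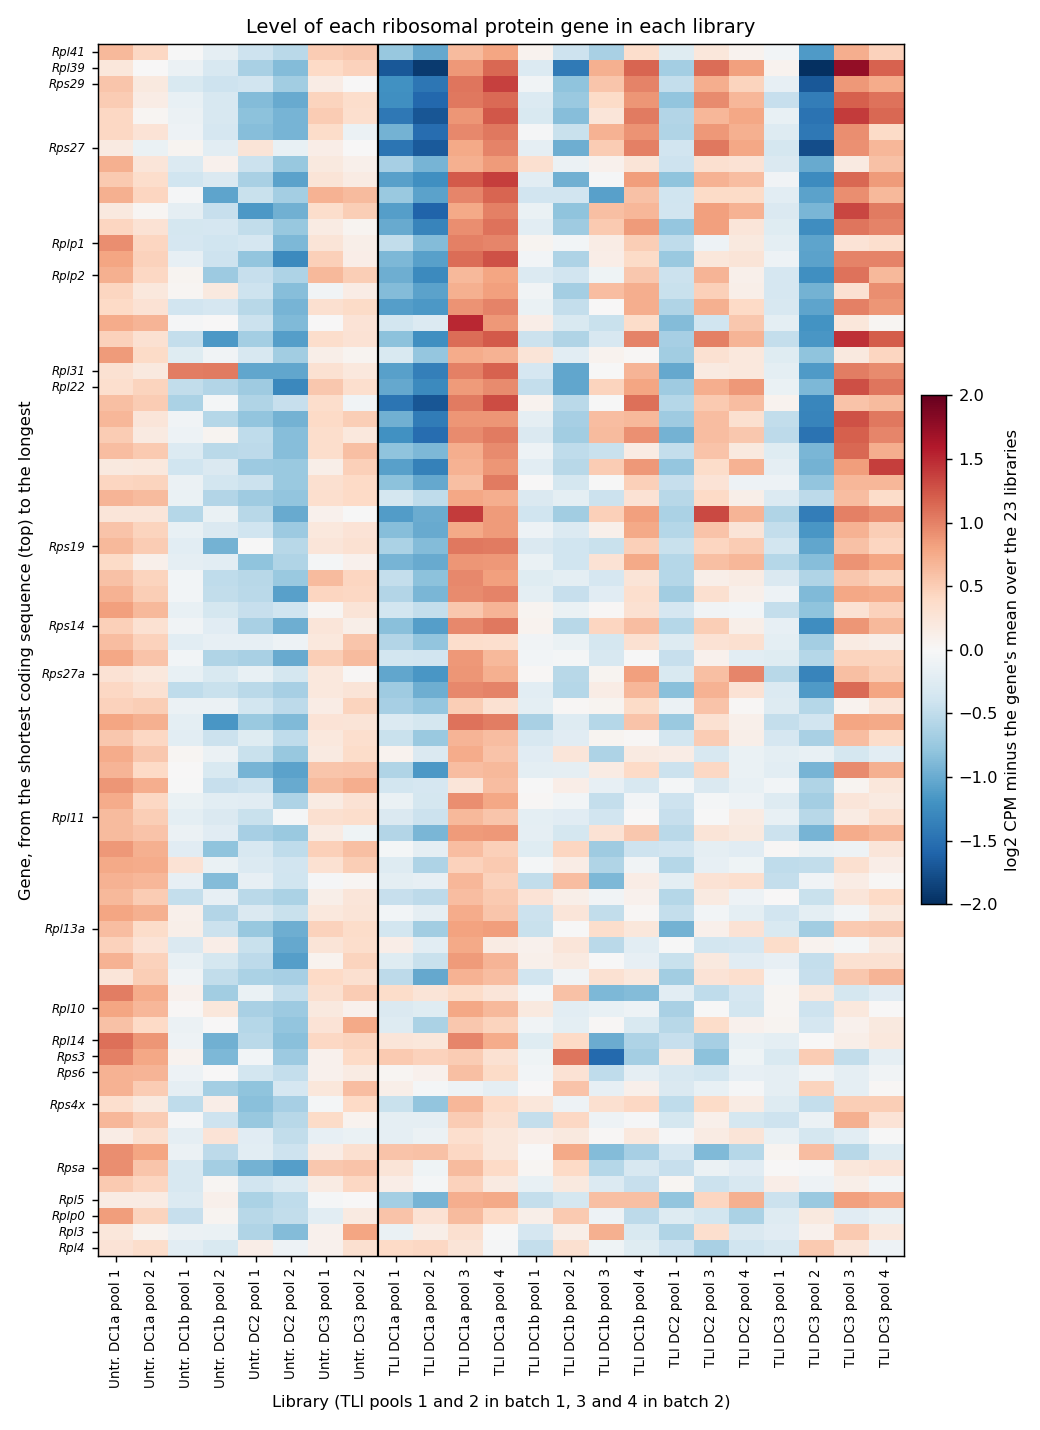
Level of each of the 76 members (rows, ordered by coding length) in each of the 23 libraries (columns), as log2 CPM minus the member's mean over libraries, on a colour scale from -2 to 2; members named by role or plotted singly are labelled. TLI batch 2 columns are high and the TLI DC1a batch 1 columns low, mainly among members with short coding sequences.

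Members with short coding sequences varied most. Dividing the 76 members at a coding length of 454.5 bases gave 38 short and 38 long ones, and the ratio of their summed counts was taken in each library. It was between 0.813 and 0.971 in the 8 untreated libraries, between 0.50 and 0.914 in the 7 TLI libraries of batch 1 and between 1.06 and 1.37 in the 8 of batch 2. The lowest 4 values, 0.546, 0.509, 0.580 and 0.50, were in TLI DC1a pools 1 and 2, TLI DC1b pool 2 and TLI DC3 pool 2, the libraries of low mitochondrial share. Between batches, the median log2 fold change was 1.37 for short members and 0.42 for long ones.

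Across the 76 members, the log2 fold change between TLI batches had a Pearson correlation of -0.68 with the log2 coding length. That for TLI versus untreated DC1a was 0.72, and those for DC1b, DC2 and DC3 were 0.51, 0.39 and 0.70. In the batch 1 libraries alone these 4 were 0.80, 0.42, 0.03 and 0.65. The fits over both batches take out 1 batch term shared by the TLI subsets. Before that term was taken out, the TLI batch 2 share over the untreated one was larger for short members than for long ones. It was 2.08 and 1.45 in DC2, 1.41 and 1.02 in DC1a, 1.53 and 1.11 in DC1b, and 1.42 and 1.01 in DC3. These ratios fell with length, whereas the fitted correlations were positive. In untreated cells the correlation was -0.14 for DC1b and -0.00 for DC2 against DC1a, and -0.30 for DC3. In TLI cells it was -0.46 for DC1b, -0.51 for DC2 and -0.46 for DC3 against DC1a. Across 13666 other protein coding genes it lay between -0.11 and 0.13 in each of these comparisons. Only 1103 of those genes were shorter than the median member, so the 2 sets are not alike in length. Among these 1103 the median log2 fold change was 0.19 between TLI batches. For TLI versus untreated it was -0.22, 0.10, 0.15 and -0.10 in DC1a, DC1b, DC2 and DC3. The batch and TLI versus untreated DC1a values lay on the members' side of the medians for all genes given above. So did those of untreated DC1b, DC2 and DC3 against DC1a, at -0.20, -0.49 and -0.26. Coding length weighted by counts, members included, averaged 911 and 918 bases in untreated DC1a and between 1113 and 1352 in the other untreated libraries. The part of such a shift in the untreated comparisons was not tested. These correlations and medians are descriptions across genes, which share libraries and are not independent, and TLI comparisons share the batch 1 libraries. For untreated DC2 against DC1a the short and long members had nearly equal medians of -1.33 and -1.37.

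**Figure D4:**
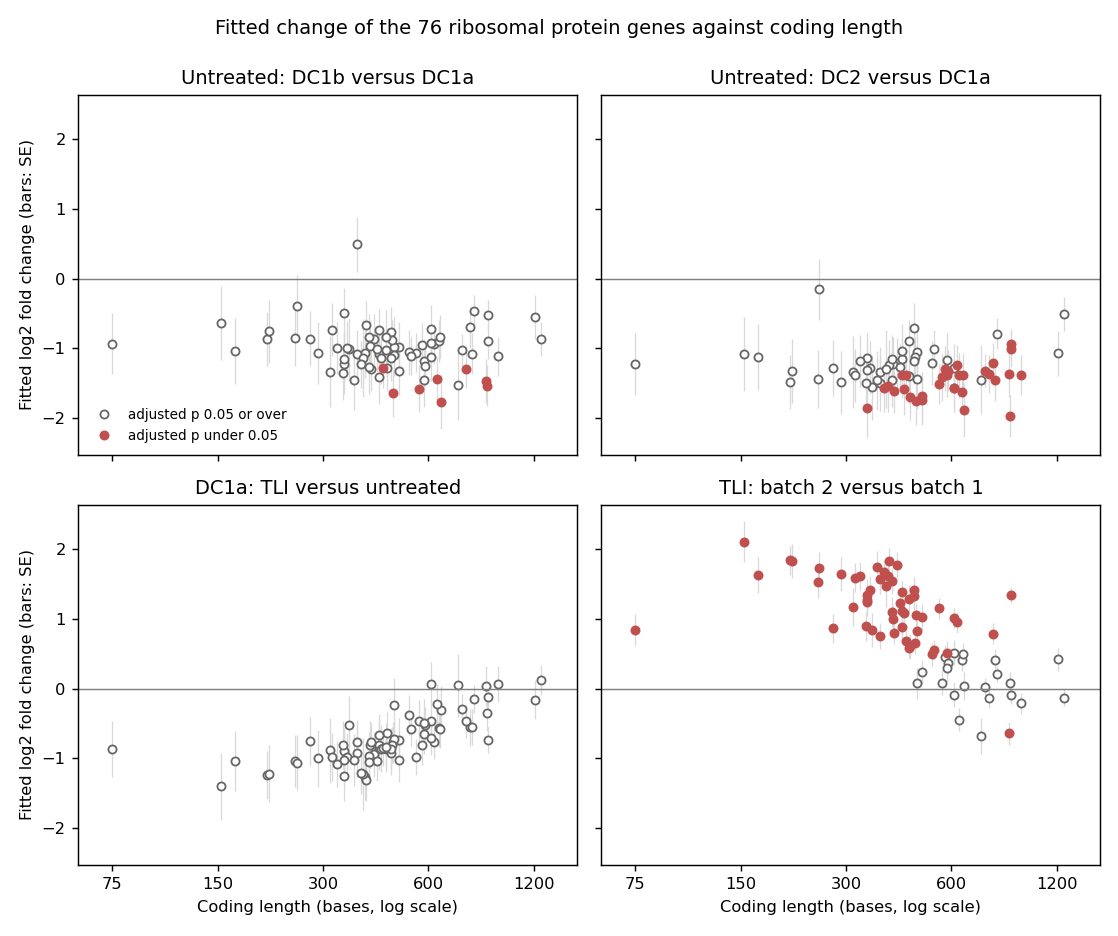
Log2 fold change of each member (vertical axis) against its coding length in bases (horizontal, log scale), for untreated DC1b and DC2 versus DC1a, TLI versus untreated DC1a, and TLI batch 2 versus batch 1; each point is 1 of 76 genes. Across the members the untreated panels are nearly flat (Pearson -0.14 and -0.00) whereas the TLI panels slope (0.72 and -0.68). Other short genes, not plotted, had medians of -0.20 and -0.49 in the untreated comparisons. The panel of TLI versus untreated DC1a shows values after the batch term was taken out.

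Genes that work beside the ribosomal proteins were examined through lists. Of 12 tested genes that encode ribosomal proteins, ribosomal protein fusions or close relatives but fall outside the naming rule, 1 was lower in untreated DC1b (Rps3a1) and 3 in untreated DC2 (Rpl36al, Rack1 and Rps3a1). Rps3a1, the mouse gene for the small subunit protein S3A, was at 1315 and 1271 CPM in untreated DC1a and at 701 and 734 CPM in DC2 (log2 fold change -1.06, SE 0.21, edgeR adjusted p = 0.0122). In TLI batch 2, 7 of the 12 were higher, against 9.35% of all genes tested. The shares of all genes tested that were lower in untreated DC1b and DC2 were 0.316% and 1.05%.

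Of 18 tested elongation factors and other genes whose mRNAs carry a TOP motif, Eef1b2, a subunit of the exchange factor of elongation factor 1, was the one called most often. It was at 863 and 676 CPM in untreated DC1a, 303 and 277 CPM in DC1b, 163 and 168 CPM in DC2 and 339 and 397 CPM in DC3. Every library of the other 3 subsets was below both DC1a libraries, with log2 fold changes of -1.70, -2.43 and -1.32 (SE 0.23, 0.24 and 0.23; edgeR adjusted p = 0.00126, 4.07e-05 and 0.0259). In untreated DC2, 4 genes of the list were lower, with Eif3f and Tpt1 next to Eef1b2, against 1.05% of all genes tested. No gene of the list was higher in any untreated comparison. In TLI cells, Eef1b2 was lower in DC2 and DC3 and Eef1a1 in DC2, and the TLI effect on Eef1b2 was higher in DC1b than in DC1a (log2 difference 1.70, SE 0.28, edgeR adjusted p = 0.04). Between TLI batches 6 of the 18 were higher and none lower, led by Tpt1, Eef1b2 and Eif3f. Of all genes tested, 9.35% were higher there and 8.07% lower.

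The machinery that builds or regulates ribosomes was mostly below the threshold. None of 22 listed initiation factors, and 1 of 38 listed ribosome biogenesis genes (Pes1, lower in DC2), was called in untreated cells. Genes of the TOP list, among them Eif3f, Eif4b and Npm1, were not counted in these lists. Of these, Eif3f and Npm1 were called lower in untreated DC2. Of 23 regulators in the mTOR and Myc pathways and 7 chaperones of ribosomal proteins and Mdm2 pathway genes, none was called in untreated cells. Of all genes tested, 0.316% and 1.05% were lower in untreated DC1b and DC2, and 0.184% were called in DC3. At such shares, lists of this size hold few calls or none, so these counts do not set them apart from other genes. In TLI cells the initiation factor Eif3g was lower in DC1b and DC2 than in DC1a. Between TLI batches, 9.35% of all genes were higher and 8.07% lower. Of the 22 listed initiation factors, 2 were higher and 7 lower there, and Eif3f and Eif4b of the TOP list were also higher. Of the listed biogenesis genes 2 were higher and 4 lower. Of the regulators 2 were lower, and 1 gene of the list of chaperones and Mdm2 pathway genes, Trp53, was lower. Of 78 mitochondrial ribosomal protein genes, which serve a separate ribosome, 3 were lower in untreated DC2 (Mrpl20, Mrpl42 and Mrpl18), 1 (Mrpl1) was higher in TLI DC1b, and 14 were higher and 6 lower in TLI batch 2, the latter a share near that of all genes. Of 10 proliferation genes, Cdk1 and Rrm2 were lower in TLI batch 2 and none was called elsewhere.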

How the data were processed

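The deposited table held estimated counts per gene that the authors made with Trimmomatic 0.36, HISAT2 2.1.0 (GRCm38) and StringTie 1.3.1c on the Ensembl 84 annotation, from uniquely mapped reads of SMARTseq v4 libraries. Reads shared with pseudogenes can be lost or split by this counting. Counts were whole numbers as deposited, and the planned count test was kept; CPM scales each column to the same total, without TMM factors. edgeR 4.0.16 (R 4.3.3; filterByExpr, TMM scaling, quasi-likelihood F test, p-values adjusted by Benjamini-Hochberg across 19597 genes, threshold 0.05) was fitted to all 23 libraries with 8 groups and batch, and was checked on simulated data, in which few of the changes simulated at the real spread for TLI versus untreated DC1a were recovered. DESeq2 1.42.0 was an alternative, beside other scalings, no filter, single batches, a pool block and leaving out each library. GENCODE mouse release 21 (GRCm38) gave lengths and overlaps. The labels give the subsets sorted from 1 pool of mice the same pool number, which the block used (fixed in edgeR for subsets, random in limma 3.58.1 for TLI versus untreated); residual correlations of libraries of the same pool were between -0.16 and 0.067. The p-values measure the spread between pools.

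The members and lists were chosen with earlier results of these data known. Named members were 19 chosen by role, the 3 largest increases and 3 largest decreases per comparison among called members whose libraries did not overlap, and the 5 highest and 5 lowest per kilobase. Of other lists, up to 3 called genes with the largest change were named, and Eif4b and Npm1 were named besides. Values of some items are not reported here.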

Additional observations from a re-analysis of the deposited data

Results flagged for a closer look

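In 2 of 99 sets of 4 TLI libraries, made of the summed share and the named members in each subset, 1 library lay far from the other 3. For 4 values of 1 group, chance gives about 1 in 20. Each set here joined 2 libraries of each batch, and the sets shared libraries, so that rate does not apply. In TLI DC1b, pool 4 had a ribosomal protein share of 6.73%, and Rps19, a small subunit protein mutated in Diamond-Blackfan anaemia, was at 2533 CPM in that pool, against between 1337 and 1493 CPM in the other pools. This is the library in which Cd8a was at 0.327 CPM.

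Some effects on the summed share had opposite directions, and these differences were not tested. In batch 1, the TLI share was 0.489 of the untreated one in DC1a and 0.619 in DC3, with every TLI library below the untreated ones, but 1.08 times the untreated one in DC1b, with every TLI library above. The share in TLI DC1b over that in TLI DC1a was 1.3 in batch 1 and 0.643 in batch 2, without overlap in either.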

How the results depend on the processing

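Of 418 alternative values of member counts and shares, 337 stayed within 1.5 times the count or 1 SD of the share. Leaving out 1 library cannot move a mean share by 1 SD, and several comparisons had no call to lose. This tally therefore does not measure how stable the calls were. With 1 library left out, the count moved past its limit in 12 of 23 fits for untreated DC1b and 5 for untreated DC2. It did so in 12 for TLI DC2 and in 20 for TLI versus untreated DC1b. The members' median turned sign in TLI DC1b and DC3 against DC1a within batch 1, and for TLI versus untreated DC1b with library totals and with the pool block. It also did so without TLI DC1b pool 3 or TLI DC2 pool 1 (TLI DC1b), and without TLI DC1b pool 1 (TLI versus untreated DC1b). Of 1406 alternatives for 48 named fold changes, 237 lost the call and none changed sign. These fold changes were all called in the main fit, and most alternatives left out only 1 library. A kept sign was therefore close to fixed in advance. With DESeq2's Wald test the members called were 26 in untreated DC1b, 61 in untreated DC2, 2, 22 and 3 in TLI DC1b, DC2 and DC3 (all against DC1a), 5 and 2 for TLI versus untreated in DC1a and DC1b, and 1 for the difference in TLI effect. DESeq2 also called more genes over the whole table. In untreated DC1b and DC2 it called 2.6% and 5.06% of all genes lower, against 0.316% and 1.05% with edgeR. A larger count of members in an alternative is therefore not stronger support, and for several alternatives the share of all genes is not given. Size factors by DESeq2's method (RLE) gave 3 in untreated DC1b and 0 for TLI versus untreated DC1b. Library totals alone gave 0 in untreated DC1b, 19 in untreated DC2 and 2 in TLI DC2. Batch 1 alone gave 0 in TLI DC2 and 0 for TLI versus untreated DC1b, and batch 2 alone 1 in TLI DC1b and 7 in TLI DC2. The pool block gave 5 in untreated DC1b, 6 in TLI DC2 and 2 for TLI versus untreated DC1b, and changed no other count by over 1.5 times. Without the 4 libraries of low mitochondrial share, an alternative chosen after seeing the data, as were batch 2 alone and the erythroid-free totals, the counts were 31 and 61 in untreated DC1b and DC2, 2 and 28 in TLI DC1b and DC2, 0 for TLI versus untreated DC1b and 32 between batches. The untreated DC3 share was 6.91% with pseudogenes added and 5.66% with TMM-scaled totals (added after seeing the data), which gave 3.87% in untreated DC1b. The cause of these moves was not tested.

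Leaving out 1 library gave between 0 and 15 calls in untreated DC1b, 1 and 43 in untreated DC2, 2 and 14 in TLI DC2, 0 and 1 in TLI DC1b, TLI DC3 and TLI versus untreated DC1b, 49 and 58 between batches, and 0 elsewhere. Shares then lay between 7.14% and 8.07% (untreated DC1a), 4.19% and 4.74% (DC1b), 3.30% and 3.90% (DC2), 6.26% and 6.52% (DC3), and for TLI between 5.5% and 7.38% (DC1a), 4.88% and 5.52% (DC1b), 4.90% and 6.27% (DC2) and 5.12% and 6.64% (DC3). With 2 libraries per untreated group and a wide spread between libraries, a missing call does not show that groups were alike.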
